A study of Mus musculus with 2 samples.

Results

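The genes described here code for the proteins that start, restrain and dissolve blood clots at the surface of cells: tissue factor (F3), its inhibitors Tfpi and Tfpi2, the protein C pathway receptors Thbd and Procr, the plasminogen activators Plat and Plau, the urokinase receptor Plaur, and the plasminogen-binding pair Anxa2 and S100a10. They were taken by symbol from a table of 26127 genes, in which all 10 were found, and 9 of them had a mean of at least 1 RPKM (reads per kilobase and per 1000000 reads) over both libraries. The cells were PS10, a female line of extraembryonic endoderm (XEN) stem cells of ICR strain, a cultured counterpart of the embryo's primitive endoderm. The control group received a control locked nucleic acid (LNA), and the other group an LNA against Gata6-AS, the RNA made antisense to the endoderm factor gene Gata6. The sample titles call the agents siRNA, and the treatment text calls them LNA. Both groups were transfected with the same lipid reagent, no untransfected cells were analysed here, and PS10 is 1 line. With 1 library per group there is no replicate check, so the values compare these 2 libraries and carry no p-value of their own.

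Clotting starts when tissue factor, a membrane protein, binds factor VII and the pair activates factor X, which leads to thrombin and fibrin. Thrombin bound to thrombomodulin turns from a clotting enzyme into an activator of the anticoagulant protein C. Fibrin is dissolved by plasmin, which plasminogen activators release from plasminogen, often while both are held on a cell surface, and plasmin also cuts matrix proteins. Parietal endoderm, one of the descendants of primitive endoderm, lays down Reichert's membrane beside the trophoblast and the maternal blood, and thrombomodulin and tissue plasminogen activator are classical markers of this cell type.

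The targeted RNA was at 10.1 RPKM with the control LNA and 5.83 RPKM with the other, hereafter the depleted library, and Gata6 at 81.9 and 55.7 RPKM. The control library held about 1.04e+08 reads and the depleted library about 1.23e+08, as read from whole multiples in the RPKM values. Of 12 parietal endoderm markers, 10 had a mean of at least 1 RPKM, led by Sparc and the laminin gene Lama1 at 2104 and 1125 RPKM with control LNA, while the collagen IV genes Col4a1 and Col4a2 lay under 1 RPKM in both libraries. Of 10 visceral endoderm markers 5 had such a mean: Rbp4 at 77.5 and 62.7 RPKM, Trf at 19.3 and 16.4, Cubn at 7.35 and 6.35, Hnf4a at 3.41 and 4.43, and Ttr at 2.42 and 2.20 RPKM. The other 5, Afp, Apoa1, Apoa4, Apob and Amn, were under 1 RPKM in both libraries. Markers of both lineages were thus present, and the cells are called XEN cells here. The summed level of the visceral markers went from 110 to 92.2 RPKM, with 4 of the 5 measured markers below 0 in the log2 difference. The summed level of the parietal markers went from 5945 to 4524 RPKM, with 9 of the 10 measured markers below 0, where 42.0% of all genes were. Of these, Fst, follistatin, which binds activin, stood at 128 and 46.9 RPKM, Snai1, a repressor of epithelial genes, at 91.8 and 35.3 RPKM, and Nid1, a basement membrane linker, at 193 and 126 RPKM. Vim, an intermediate filament gene, was above 0, at 117 and 182 RPKM. Of 7 XEN markers 5 were below 0, where 42.0% of all genes were; Sox7, an endoderm transcription factor, was at 145 and 59.4 RPKM. Above 0 were Dab2, an endocytic adaptor, at 31.0 and 43.6 RPKM, and Foxa2, a forkhead factor, at 35.1 and 35.9 RPKM. Thbd and Plat are themselves parietal endoderm markers, and the part of all these markers in the differences below was not tested.

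Tissue factor was by far the most abundant of these transcripts per length, and it was lower in the depleted library. The gene lies at chr3:121426455-121437970 on the plus strand (mm9, as for all gene positions below). F3 stood at 796 RPKM with control LNA and 541 RPKM after depletion, or rank 37 and 62 of the 10863 genes that averaged 1 RPKM or more. This was 68.0% of control; the 95% Clopper-Pearson interval, 67.0% to 69.0%, was computed from the least whole reads that give the RPKM values, 41464 and 33468. Such intervals cover counting error only, not the variation between cultures. On the log2(RPKM + 1) scale, which is used for all differences below as depleted minus control, F3 was at -0.56. F3 alone made up 73.1% of the genes' summed RPKM with control LNA and 67.9% after depletion.

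**Figure D1:**
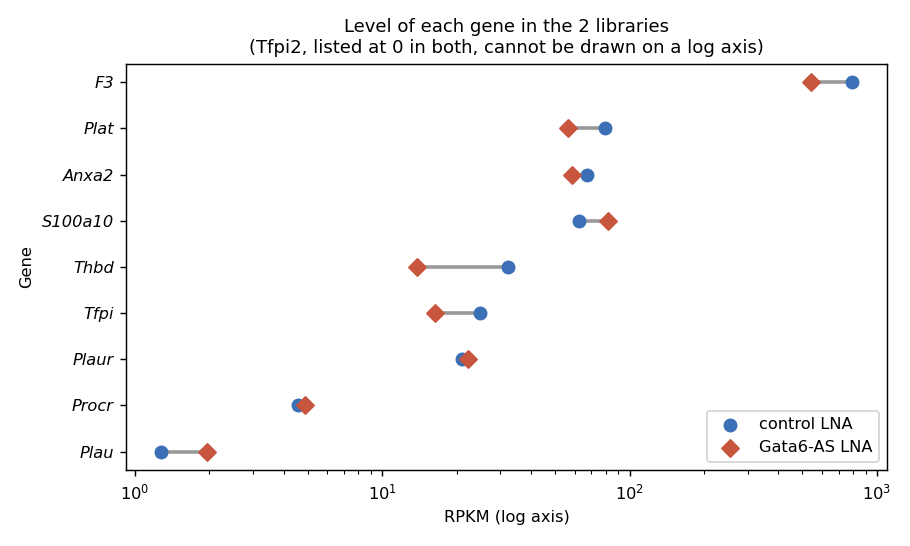
RPKM of each gene (log axis) in the control LNA library (circles) and the Gata6-AS LNA library (diamonds), ordered by the control level. F3 lies far to the right at 796 and 541 RPKM, Plau lies at the left end at 1.27 and 1.95 RPKM, and the longest line belongs to Thbd.

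Tfpi, the Kunitz-type inhibitor that blocks factor Xa and the complex of tissue factor with factor VIIa, was lower as well. The gene, at chr2:84273012-84316932 on the minus strand, stood at 24.9 RPKM with control LNA and 16.4 RPKM after depletion, or 65.8% of control (64.1% to 67.5%), a log2 difference of -0.58. The ratio of F3 to Tfpi was 32.0 (31.3 to 32.6) with control LNA and 33.0 (32.3 to 33.8) after depletion. The trigger and its inhibitor therefore differed by nearly the same factor. The 2 intervals overlap, which does not show that the ratios are equal. Tfpi2 (chr6:3912594-3918375, minus strand), a Kunitz-type protein that inhibits plasmin and trypsin more than factor Xa, was listed at 0 RPKM in both libraries. Over 1 kilobase of transcript a count of 0 allows up to 0.0290 RPKM with control LNA and 0.0244 RPKM after depletion. Of 76 ribosomal protein genes in the table, 1 was also listed at 0 in both libraries. The collagen IV genes, abundant in parietal endoderm, were also low here, though not at 0. Col4a1 stood at 0.0878 and 0.168 RPKM, and Col4a2 at 0.531 and 0.619 RPKM. For this reason the value of Tfpi2 is given only as listed. Whether the way reads were counted plays a part was not tested.

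The receptors of the protein C pathway went apart. Thbd, thrombomodulin, had the most negative difference of the 9 measured genes, -1.16. It stood at 32.2 RPKM with control LNA and at 13.8 RPKM after depletion. That is 42.9% of control (41.6% to 44.2%), from 12393 and 6310 reads over 3718 bp. This length equals the whole span of the gene in the table, chr2:148230207-148233924 on the minus strand, so the gene was counted as 1 exon. Procr (chr2:155576853-155581207, plus strand), the endothelial protein C receptor, which presents protein C to the complex of thrombin and thrombomodulin, stood at 4.55 RPKM with control LNA and 4.87 RPKM after depletion. Its difference was 0.08, and its interval of 98.3% to 117% of control includes 100%. Thbd exceeded Procr by 7.07 times (6.62 to 7.56) with control LNA and by 2.83 times (2.66 to 3.01) after depletion. Among the 10863 genes, the difference of Thbd lay at percentile 0.249 and that of Procr at percentile 55.6.

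**Figure D2:**
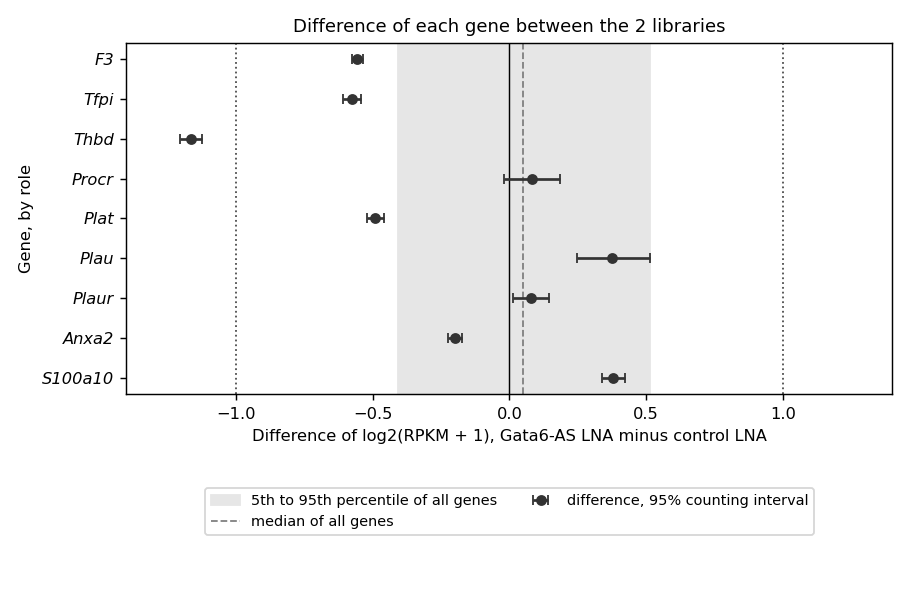
Difference of log2(RPKM + 1) of each measured gene (points) with its 95% counting interval, against the range from the 5th to the 95th percentile of all genes (grey band, -0.41 to 0.51), the median of all genes (dashed) and a 2-fold change (dotted). F3, Tfpi, Thbd and Plat lie to the left of the band and the other 5 genes within it.

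The plasminogen activators differed in opposite directions. Plat (chr8:23868216-23893319, plus strand), tissue plasminogen activator, stood at 79.3 RPKM with control LNA and 56.2 RPKM after depletion, or 70.8% of control (69.3% to 72.4%), a difference of -0.49. Plau (chr14:21655884-21662610, plus strand), urokinase, was the lowest of the 9 measured genes, at 1.27 RPKM with control LNA and 1.95 RPKM after depletion. Its 309 and 562 reads put it at 153% of control (133% to 177%), a difference of 0.38 on a scale that understates changes at so low a level. Plat exceeded Plau by 62.3 times (55.6 to 69.9) with control LNA and by 28.8 times (26.5 to 31.4) after depletion, so Plat was the main activator transcript in both. Plaur (chr7:25247519-25260892, plus strand), the lipid-anchored receptor that holds urokinase at the cell surface, stood at 21.0 and 22.3 RPKM, 106% of control (101% to 111%), a difference of 0.08. It was 16.5 times (14.7 to 18.6) as abundant as its ligand Plau per length in the control and 11.4 times (10.4 to 12.5) in the depleted library.

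Anxa2 and S100a10 code for the subunits of a heterotetramer that binds plasminogen and tissue plasminogen activator on cells. Anxa2 (chr9:69301427-69339602, plus strand), the membrane-binding annexin subunit, stood at 67.0 RPKM with control LNA and 58.3 RPKM after depletion, 86.9% of control (85.4% to 88.4%), a difference of -0.20. S100a10 (chr3:93359002-93368565, plus strand), the subunit whose tail binds plasminogen, stood at 62.7 and 81.9 RPKM, 131% of control (127% to 134%), a difference of 0.38. The ratio of Anxa2 to S100a10 was 1.07 (1.04 to 1.10) with control LNA and 0.712 (0.696 to 0.727) after depletion. The subunit transcripts were thus close to equal per length in the control, with S100a10 in excess in the depleted library. Anxa2 is the 1 gene of the 10 that overlaps another listed gene, Gm16144 on the opposite strand, which stood at 0.257 and 0.157 RPKM.

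F3 was the first and Plau the last in the order of levels per length in both libraries. In the control it ran F3, Plat, Anxa2, S100a10, Thbd, Tfpi, Plaur, Procr, Plau, and in the depleted library F3, S100a10, Anxa2, Plat, Plaur, Tfpi, Thbd, Procr, Plau. Thbd went from the fifth to the seventh place. The closest neighbours were Anxa2 over S100a10 in the control, by 1.07 times, and Anxa2 over Plat in the depleted library, by 1.04 times (1.02 to 1.06). Every neighbouring pair was separated by more than its counting interval, but with 1 library each the spread between cultures is unknown. Levels of different genes also depend on the gene lengths the authors used.

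Of the 9 measured genes, 5 were below 0 and 4 above, with a median difference of -0.20 and a range from -1.16 to 0.38. Over all 10863 genes the median was 0.05 and 58.0% lay above 0. At the 2-fold rule, a difference of at least 1 either way, 1 gene (Thbd) was lower, against 0.451% of all genes, and 0 were higher, against 0.331%. At the 1.5-fold rule, Thbd was again the 1 gene lower, against 1.95% of all genes, and 0 were higher, against 3.42%. Tfpi and F3 lay just short of this rule, and Tfpi passed it with a smaller pseudocount of 0.1 or 0.5 RPKM (-0.60 and -0.59). With the median of all genes set to 0, both passed it (-0.62 for Tfpi and -0.60 for F3). In plain RPKM, without the added 1 RPKM, Tfpi was 1.52-fold lower and Plau 1.53-fold higher. With a pseudocount of 0.1 RPKM, Plau came to 0.579, just under the cutoff of 0.585. In rank, Thbd, Tfpi, F3 and Plat lay at percentiles 0.249, 2.03, 2.15 and 3.19 of all differences, and Plau and S100a10 at 89.3 and 89.5.

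**Figure D3:**
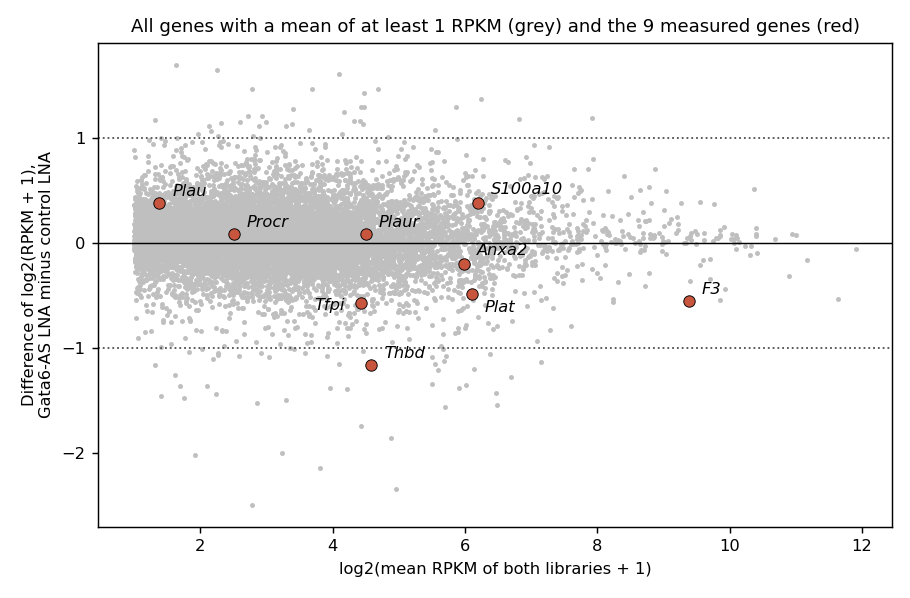
Difference of log2(RPKM + 1) against log2 of the mean RPKM + 1 for 10863 genes averaging 1 RPKM or more (grey points) and the 9 measured genes (red); dotted lines mark 2-fold. Thbd, at -1.16, is the 1 red point beyond a dotted line, and F3 lies among the few genes at the right end of the plot.

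The authors' deposited table of selected genes held 3 of the 9, each as lower in the depleted library, where 5.72% of the 10863 genes were listed as lower and 6.23% as higher. In the authors' deposited table the log2 difference was -1.22 for Thbd (p = 0.000121), -0.63 for F3 (p = 0.0173) and -0.60 for Tfpi (p = 0.0340). These p-values are the authors', from the same libraries, by a test not given in the sources used here. The authors' log2 values are not log2 of the RPKM values, so their differences are on another measure. For Thbd they were 6.88 and 5.66, beside 32.2 and 13.8 RPKM. None of the 9 genes was listed as higher in the authors' deposited table.

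Most genes of the soluble clotting factors that these membrane proteins act on lay under a mean of 1 RPKM. Of 16 coagulation factor genes, 1 reached a mean of 1 RPKM: F10, factor X, at 1.13 and 1.16 RPKM. F7, the ligand of tissue factor, stood at 0.0312 and 0.0263 RPKM, and F2, prothrombin, at 0.372 and 0.329 RPKM. Proc, the protein C precursor, stood at 0.0764 and 0.0248 RPKM, from at least 13 and 5 reads; the authors' deposited table gives it a log2 difference of -1.79 (p = 0.0376). Plg, plasminogen, stood at 0.00350 RPKM with control LNA and 0 after depletion.

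Among the other inhibitors and receptors, Pros1, protein S, the cofactor of activated protein C, was the most abundant of 8 anticoagulant genes, at 52.4 RPKM with control LNA and 40.5 RPKM after depletion (-0.36). Serpine2, protease nexin 1, which inhibits thrombin and urokinase, stood at 10.96 and 11.64 RPKM. Serpini1, neuroserpin, an inhibitor of tissue plasminogen activator, was at 5.54 and 4.02 RPKM (-0.38). The thrombin receptor F2r was at 26.8 and 24.2 RPKM, and F2rl1, a receptor cut by trypsin-like proteases, at 7.06 and 7.99 RPKM. The enzymes that make the vitamin K-dependent carboxyl groups of clotting factors were measured in both libraries, Ggcx at 5.61 and 5.59 RPKM and Vkorc1 at 12.98 and 14.59 RPKM.

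Across these lists, 15 of 48 genes had a mean of at least 1 RPKM. Of these 15, 8 were below 0, where 42.0% of all genes were, and 7 above. Their median was 0.00, beside 0.05 over all genes. At the 2-fold rule 0 were lower, against 0.451% of all genes, and 1 was higher, against 0.331%. That gene was Eno1, a glycolytic enzyme also known as a plasminogen receptor on cell surfaces, at 67.9 RPKM with control LNA and 155 RPKM after depletion (1.18), and at 1.18 in the authors' deposited table (p = 4.14e-05). Genes with near-identical copies in the genome, which Eno1 has, can gain or lose reads to them, so its level is uncertain. The plasminogen receptor Plgrkt, carried in the table as 5033414D02Rik, stood at 11.4 and 11.3 RPKM. Lrp1, the endocytic receptor that clears complexes of activators with their inhibitors, stood at 2.82 and 2.91 RPKM, and Igf2r, which binds plasminogen and the urokinase receptor, at 37.9 and 27.5 RPKM (-0.45).

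**Figure D4:**
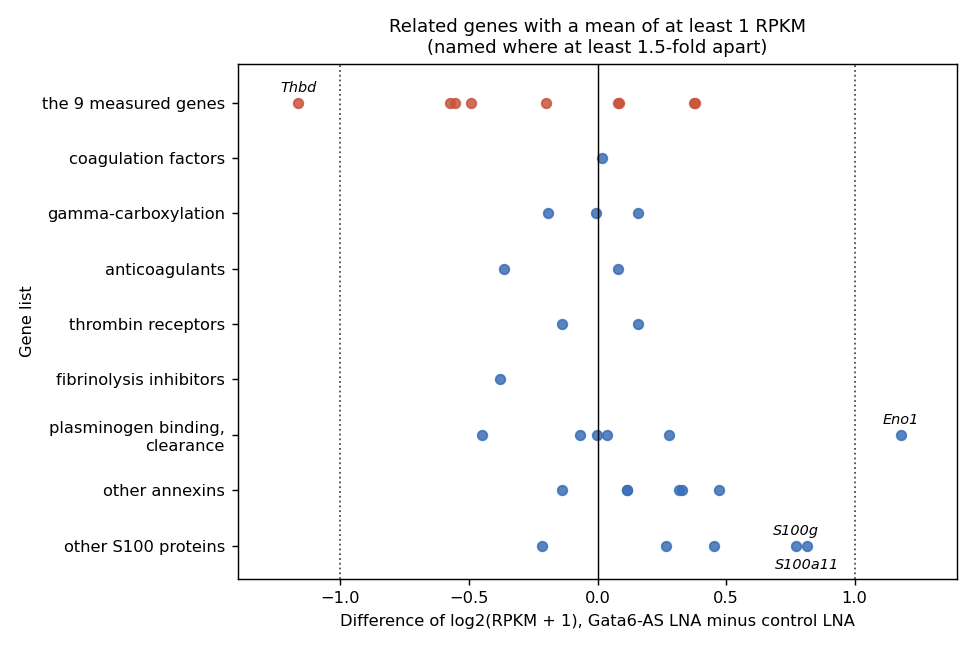
Difference of log2(RPKM + 1) for the 9 measured genes (red) and for related genes averaging 1 RPKM or more (blue), 1 row per list; dotted lines mark 2-fold and genes at least 1.5-fold apart are named. Beside Thbd at -1.16, the named genes are Eno1 at 1.18, S100a11 at 0.82 and S100g at 0.77.

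Of the relatives of the plasminogen-binding pair, 9 of 11 measured genes were above 0, where 58.0% of all genes were, with a median of 0.32 beside 0.05 over all genes. Of 11 other annexins 6 were measured, with 5 above 0 and 1 below and a median of 0.22. Anxa5, which binds phosphatidylserine and shields it from clotting factors, was at 32.9 and 41.3 RPKM (0.32), and Anxa6 at 16.2 and 22.9 RPKM (0.47). Of 13 other S100 genes 5 were measured, with 4 above 0 and a median of 0.45. S100a11, a calcium-binding partner of annexin A1, stood at 87.0 and 154 RPKM (0.82), and S100g, a calcium-binding protein also called calbindin-D9k, at 13.2 and 23.3 RPKM (0.77). S100a1 was the member below 0, at 127 and 109 RPKM (-0.22). The counts and medians describe these libraries, and nothing particular to the families is read from them.

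Thbd, Procr, Tfpi and F3 are also known from endothelium, trophoblast and other cells that meet blood. In bulk RNA, fewer cells of a type and less RNA per cell cannot be told apart. Of 9 endothelial markers 3 reached a mean of 1 RPKM, and their summed level was 27.5 RPKM with control LNA and 19.3 RPKM after depletion. Most of that was Tek, an angiopoietin receptor, at 23.3 and 16.2 RPKM (-0.50), with Kdr, a VEGF receptor, at 2.61 and 1.56 RPKM (-0.50). The part of these markers in the differences of Thbd, Tfpi and F3 was not tested. Cdh5, the cadherin of endothelial junctions, was at 0.586 and 0.331 RPKM, and the authors' deposited table gives it a log2 difference of -0.97 (p = 0.0169). Kdr and Tek are listed there as lower too, at -0.85 and -0.52. Esam stood at 1.004 and 1.183 RPKM and Pecam1 at 0.0112 and 0.0283 RPKM, while Cldn5 and Emcn were at 0 in both libraries. Of 9 trophoblast markers 0 had a mean of 1 RPKM, and their sum was 1.10 and 1.69 RPKM. Cdx2 was the most abundant, at 0.653 and 1.19 RPKM, followed by Eomes at 0.321 and 0.407 RPKM, and Elf5 was at 0.00986 and 0.0388 RPKM. The authors' deposited table lists Cdx2 and Elf5 as higher, by 0.73 (p = 0.0600) and 1.84 (p = 0.0178), and Hand1, Prl3d1 and Tpbpa were at 0. Of 7 fibroblast markers 0 had such a mean (summed 0.00541 and 0.0150 RPKM), and of 8 blood cell markers Csf1r alone did, at 2.70 and 3.12 RPKM, with Ptprc, Pf4 and Hbb-bh1 at 0. Of 6 embryonic stem cell markers Nanog alone did, at 4.61 and 5.07 RPKM, with Sox2 and Esrrb at 0.

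RefSeq promoter sequences (GRCm38.p6) were found for 6 of the 10 genes, at 9 annotated starts: F3, Tfpi, Tfpi2, Procr, Plaur and Anxa2. They were searched on both strands, over the 250 bases before each start. The motifs were the TATA box TATAAA, the GC box GGGCGG, the CACCC box CCACCC and the GATA sites AGATAA and TGATAA. The AP-1 site was searched in a loose form, TGANTCA, where N is any base. The AP-1 letters were found before 5 of the 6 genes, at 5 of 9 starts, while 6.75% of the 32851 windows searched hold them. GC boxes were also found before 5 of the 6 genes, at 6 of 9 starts, and stand in 32.7% of all windows. CACCC boxes were found before 4 genes, at 5 of 9 starts (28.1% of all windows). AGATAA was found before Tfpi, at 1 of 9 starts (9.99% of all windows), and TGATAA before Tfpi2, also at 1 (7.94%). GATA forms that end in G were not searched, so GATA sites were matched more strictly than AP-1 sites. Start 1 of Tfpi holds TGATAG and start 2 holds AGATAG, which are not among these counts. TATAAA was found before Tfpi and Anxa2, at 2 of 9 starts (12.4%). Shares of all windows compare with the counts of starts, not of genes, and the first 2 windows of Tfpi2 overlap. The stretches with AP-1 letters are shown because this motif was the most widely shared relative to all windows; capitals mark it, with 25 bases on either side, and all are written 5′ to 3′ on the strand of the gene. The printed stretches were chosen after the matches were seen.
F3, chr3:121723366-121723433, plus strand: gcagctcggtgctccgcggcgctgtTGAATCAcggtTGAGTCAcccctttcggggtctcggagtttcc
Procr, chr2:155751038-155751094, plus strand: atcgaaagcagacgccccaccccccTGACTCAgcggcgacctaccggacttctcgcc
Plaur, chr7:24462389-24462445, plus strand: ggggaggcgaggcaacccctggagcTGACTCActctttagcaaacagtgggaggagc
Anxa2, chr9:69453563-69453619, plus strand: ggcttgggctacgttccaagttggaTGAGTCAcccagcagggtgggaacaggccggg
Tfpi2, chr6:3968421-3968477, minus strand: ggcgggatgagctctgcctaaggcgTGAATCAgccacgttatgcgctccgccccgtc

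The AP-1 letters began 146 and 135 bases before the start of F3, 154 before Procr, 95 before Anxa2, 77 before the third listed start of Tfpi2 and 69 before Plaur. F3 was the 1 gene with 2 matches. The match of Tfpi2 and the first match of F3 read TGAATCA, and the others read TGACTCA or TGAGTCA. The genes that hold them did not share a direction: F3 and Anxa2 were below 0 (-0.56 and -0.20), Procr and Plaur near 0 (0.08 each), and Tfpi2 was listed at 0 RPKM. Neither start of Tfpi, at -0.58, holds them within these windows. A match of letters is a description of the sequence and says nothing of whether a factor binds there.

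**Figure D5:**
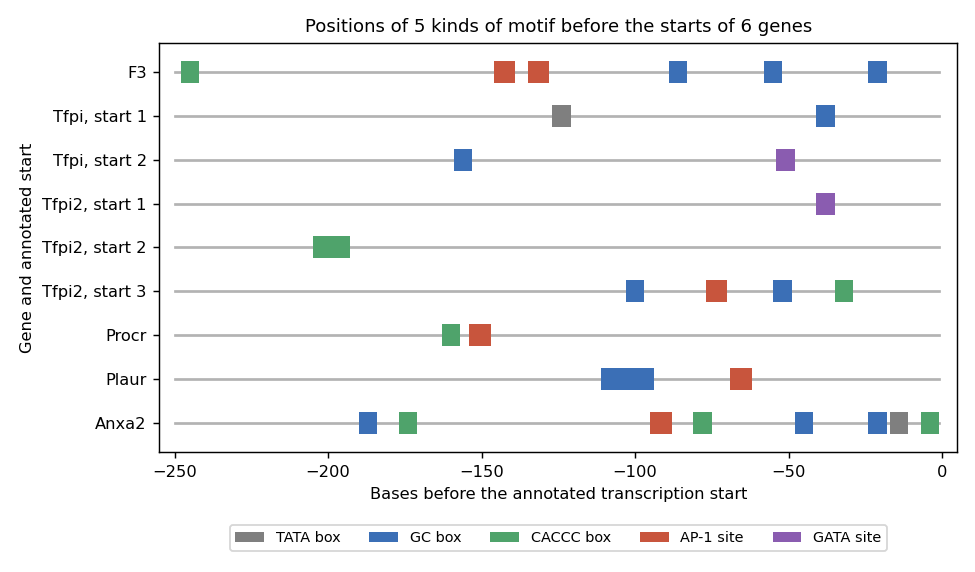
Positions of TATA boxes, GC boxes, CACCC boxes, AP-1 sites and GATA sites (coloured bars) within 250 bases before each annotated start of 6 genes, in bases before the start; touching or overlapping matches of 1 kind merge into 1 bar. AP-1 sites, drawn wherever TGANTCA matches, lie between 154 and 63 bases before the start in F3, Procr, Plaur, Anxa2 and at the third start of Tfpi2. GATA sites are drawn for AGATAA and TGATAA only, without forms that end in G.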

How the data were processed

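RNA of 1 control LNA and 1 Gata6-AS LNA library was sequenced; TopHat and mm9 are named in the submitters' processing notes. The authors' deposited table gives RPKM per gene, per the file headers; counting tool, annotation, strand use and aligner version: not given in the sources used here. Another deposited table lists, for 2099 genes the authors selected (largest p-value 0.07499), a log2 value per library and the log2 difference; it was joined by coordinates.

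From RPKM as deposited, the difference of log2(RPKM + 1) was computed, with no test, for genes averaging 1 RPKM or more, without small RNAs and features under 200 bp. Depth came from genes under 3000 bp whose RPKM times length is a whole number of reads (873 in the control, 918 in the depleted library, within 0.02 reads). The least whole reads giving both RPKM values at 1 length from 100 to 12000 bp (tolerance 3e-07 plus 0.0002 reads) gave the 95% Clopper-Pearson intervals, tested on simulated data; PCR copies are not independent molecules. The limit for a count of 0 is 3 reads. Of 140 entries of related and marker lists, 137 matched by symbol and 3 by RefSeq synonym (GRCm38.p6, names only). The 10 genes are all named, as are listed genes past 1.5-fold; other listed genes, among them those under 1 RPKM, were named after their values were seen. Sequence was to be shown for genes past 1.5-fold; Thbd is not in the promoter table, so others are shown. Genes and lists were chosen with earlier results of these data known. Alternatives were other pseudocounts, scalings and filters, and the authors' log2 differences, which are on another measure than RPKM. Python 3.11.15, numpy 2.4.6, scipy 1.17.1 and pandas 2.3.3 were used. Listed genes not named in the text are not reported here singly.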

Additional observations from a re-analysis of the deposited data

How the results depend on the processing

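The 9 measured genes kept the sign of their difference under all alternatives in which they were measured. Another pseudocount or filter cannot reverse a sign, so for those settings this was fixed in advance. Only the scalings could have reversed one and, for Thbd, F3 and Tfpi, the authors' log2 differences from the same libraries. Thbd passed the 2-fold rule in all alternatives (-1.23 to -1.16) and no other gene did. The 1.5-fold count of lower genes moved from 1 to 2 with a pseudocount of 0.1 RPKM, a pseudocount of 0.5 RPKM, each library scaled to 1000000 summed RPKM, or quantile normalization (Tfpi added each time), and to 3 with the expressed genes' median difference set to 0 (F3 also added). The median over the genes, -0.20, was -0.25 with the median of expressed genes set to 0, -0.23 with summed RPKM scaled, -0.17 with quantile normalization, -0.10 with no filter, which adds Tfpi2 at 0, and -0.49 above a mean of 5 RPKM, which leaves out Plau and Procr. Over all genes, the 2-fold counts of 49 lower and 36 higher became 81 and 92 with a pseudocount of 0.1 RPKM, 59 and 59 with 0.5 RPKM, and 87 and 74 with summed RPKM scaled, where 12727 rather than 10863 genes passed the filter. The 1.5-fold counts of 212 and 372 became 324 and 618, 259 and 469, and 399 and 573 under these, 262 and 271 with the median set to 0 and 253 and 276 with quantile normalization. Depth limits Plau and Procr most, and 1 library per group limits every value.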
